A study of Homo sapiens with 22 samples.

Results

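The genes described here are 51 genes of DNA replication and S phase, taken by gene name from expression tables of the MDA-MB-231 line, which was established from a human breast cancer. All 51 were among the 60669 genes of the knockdown and DMSO tables, and all 51 among the 14954 of the CTRL table. They were read in 7 steps of replication: licensing of origins (11 genes), activation of the helicase (6), polymerases and primase (9), sliding clamp, clamp loaders and strand joining (11), nucleotide supply (4), chromatin assembly (5), and fork protection with control of licensing (5). RNA was sequenced in 22 libraries, 2 in each of 11 groups. By its title the series concerns BET inhibition, which blocks a family of proteins that bind acetylated histones, and the complex that writes m6A on RNA through its enzyme METTL3. The knockdown table held shM3 cells with METTL3-WT added back (shM3_WT), shM3 cells with METTL3-CD added back (shM3_CD), shM3 cells, and cells labelled B5. These were in culture for 2 to 3 months by their labels. In the DMSO table were cells given JQ1, Molib or I-BET151 at 0.5 µM for 3 days, and cells given DMSO for 3 days. The CTRL table held cells labelled MW_JQ1 and cells labelled JQ1, both given 0.5 µM JQ1, and CTRL cells, all for 3 days. Every sample carries the genotype label WT, and cells received lentivirus and/or drugs. The labels give neither the hairpin behind shM3 nor whether a line is 1 clone, and do not say what B5, CD or MW stand for. Nor is it stated whether libraries of 1 group are separate cultures, so the p-values reflect the scatter among these libraries and that scatter may be technical.

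Replication starts when the origin recognition complex, with CDC6 and CDT1, loads the MCM2 to MCM7 helicase onto DNA in G1, a step that geminin (GMNN) blocks afterwards so that each origin fires once per cycle. In S phase CDC45 and the GINS complex switch the helicase on, primase and DNA polymerase alpha begin each strand, the delta and epsilon polymerases extend it on the PCNA clamp, and FEN1 and LIG1 finish the lagging strand. Many of these genes are transcribed before S phase under E2F transcription factors, held back by the RB family until cyclin-dependent kinases release them. In bulk RNA a smaller share of cells in S phase and less RNA of these genes per cell cannot be told apart.

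The promoters are shown first because E2F control is the best known feature these genes share. RefSeq promoters (GRCh38.p14, 250 bases before to 50 after the start) were at hand for 44 of the 51 genes. Any of the strings TTTCCCGC, TTTCGCGC, TTTGCCGC and TTTGGCGC on either strand, overlapping matches allowed, stood in 22 of 44 (50.0%), against 1090 of the 27305 genes with a promoter (3.99%). Among further replication genes outside the 51, such a string stood in 14 of 52 with a promoter (26.9%). For licensing genes of the 51 the count was 7 of 9, for nucleotide supply 1 of 4 and for chromatin assembly 1 of 5. The stretches below are 40 bases upstream of the start, read 5′ to 3′ on the gene's strand, with 8 matching bases in capitals (where they match on the opposite strand, the reverse complement is in capitals). TYMS, CDT1, MCM6, GINS2, POLA1, PCNA and LIG1 were among the genes lower in shM3 than in B5, while POLA2, GMNN and CDC6, which also hold a string, did not pass that test.
TYMS, chr18:657598-657637 (plus strand): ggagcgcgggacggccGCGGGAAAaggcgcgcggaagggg
PCNA, chr20:5126658-5126697 (minus strand): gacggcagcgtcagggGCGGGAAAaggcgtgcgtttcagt
CDT1, chr16:88803738-88803777 (plus strand): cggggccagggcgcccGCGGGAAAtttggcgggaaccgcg
MCM6, chr2:135876510-135876549 (minus strand): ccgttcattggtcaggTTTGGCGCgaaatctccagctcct
GINS2, chr16:85688962-85689001 (minus strand): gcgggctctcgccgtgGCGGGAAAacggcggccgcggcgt
LIG1, chr19:48170435-48170474 (minus strand): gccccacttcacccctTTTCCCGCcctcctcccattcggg
POLA1, chrX:24693765-24693804 (plus strand): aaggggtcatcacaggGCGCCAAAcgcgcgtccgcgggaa
POLA2, chr11:65261893-65261932 (plus strand): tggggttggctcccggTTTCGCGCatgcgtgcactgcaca
GMNN, chr6:24775317-24775356 (plus strand): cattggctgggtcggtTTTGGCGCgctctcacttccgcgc
Counted from the start, the first base in capitals lay at -39 in TYMS, -59 in PCNA, -35 in CDT1, -90 in MCM6, -31 in GINS2, -114 in LIG1, -137 in POLA1, -53 in POLA2 and -80 in GMNN. The MCM6 promoter held 4 matches, at -152, -148, -90 and -86, and the last, on the opposite strand, shares bases with the one in capitals. A match is a description of the sequence and not evidence of binding. The CCAAT box, the string CCAAT on either strand, was in 28 of 44 (63.6%), against 39.7% of all genes with a promoter. It was also in 26 of 33 mitosis genes (78.8%) and 31 of 52 further replication genes (59.6%), so it was not particular to the 51. The strings TTTGAA and TTCGAA, the core of the element found at many mitotic genes, were in 3 of 44 (6.82%), below the 19.5% of all genes with a promoter, and in 25 of 33 mitosis genes (75.8%), of which 3 held an E2F string.

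Values are FPKM, fragments scaled to transcript length and library size, given for each library in replicate order, and SD is over n = 2 libraries. A log2 difference is between mean log2(FPKM + 1) of 2 groups, which understates the change of low genes. A gene rose or fell where the adjusted p from limma with Benjamini-Hochberg adjustment over all genes of a table was under 0.05, and tests were made within a table only. METTL3 was at 312 and 311 FPKM in shM3_WT, 277 and 270.5 in shM3_CD, 4.39 and 4.805 in shM3 and 20.1 and 23.8 in B5. Among the inhibitor groups METTL3 stood at 20.1 and 19.2 FPKM with JQ1, 21.5 and 19.7 with Molib, 18.3 and 13.7 with I-BET151 and 25.4 and 27.2 with DMSO. In the CTRL table it stood at 212 and 234 FPKM in MW_JQ1, 11.8 and 0 in JQ1 and 31.2 and 1.18 in CTRL. All 7 defining markers of MDA-MB-231 were present in the knockdown and DMSO tables. CDKN2A, CDKN2B and MTAP, which lie together on chromosome 9 in a region known to be deleted in this line, were listed at 0 in all 8 libraries of the knockdown table, but in all 8 of the DMSO table CDKN2A was at 18.2 to 65.3, CDKN2B at 0.354 to 2.79 and MTAP at 1.55 to 4.30 FPKM, which goes against the cell line label there (these 3 were chosen after their values were seen). In B5 replicate 2, PIDD1 was listed at 8234200 FPKM while the other genes summed to 423171. In the CTRL table the small RNA RN7SL1 was at 37435 to 52947 FPKM in JQ1 and CTRL libraries, where 22.6 to 35.4% of the listed genes were at 0, but at 23.8 and 57.6 FPKM in MW_JQ1, where 1.85 and 2.05% were. There, the kind of library and the group cannot be told apart.

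In shM3 cells, where METTL3 RNA was low, most of the 51 genes were lower than in B5. Of the 51, 45 fell in shM3 relative to B5 and 0 rose, while of the 14638 genes tested 19.9% were lower and 17.9% higher (37.8% called in all). The median log2 difference was -0.95, against -0.00043 over all genes. Summed over the 51 genes, the level was 844.2 and 848.6 FPKM in shM3, against 1669 and 1697 FPKM in B5. The deepest fall was that of TYMS, thymidylate synthase, which makes the thymine nucleotide of DNA, at 20.4 and 21.8 FPKM in shM3 and 111 and 98.1 in B5. Its difference was -2.25 log2 units (SE 0.08, adjusted p = 1.64e-05). UHRF1, which guides maintenance of DNA methylation behind the fork, came next at -1.96 log2 units (SE 0.11, adjusted p = 5.12e-05). POLA1, the catalytic subunit of polymerase alpha, followed at -1.49 log2 units (SE 0.10, adjusted p = 8.79e-05). Of the 45 calls, 35 held under every alternative with no fold limit. Without B5 replicate 2, the library with the PIDD1 value, 41 genes fell.

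Adding METTL3-WT back to shM3 cells went with a rise of almost all of the genes, and adding METTL3-CD with a smaller one. In shM3_WT relative to shM3, 49 of 51 rose and 0 fell, with 16.7% of all genes higher and 22.7% lower. The median log2 difference was 0.99, against -0.08 over all genes. Of the 49 calls, 43 held under every alternative with no fold limit. In shM3_CD relative to shM3, 23 rose and 0 fell, with 6.82% of all genes higher and 4.59% lower. The median was 0.43, against 0.01 over all genes. Of these 23 calls, only 7 held under every alternative with no fold limit. The count of 23 fell whichever of the 4 libraries was left out, which leaves 1 group with 1 library. The difference of POLA1 then ran from 0.502 to 0.604 log2 units, and that of SLBP from 0.345 to 0.585. The difference between the add-backs was tested directly, and 40 of 51 were higher in shM3_WT than in shM3_CD and 0 lower, with 10.2% of all genes higher and 15.7% lower. Leaving out shM3_WT replicate 1 gave 24, shM3_WT replicate 2 gave 23, shM3_CD replicate 1 gave 19 and shM3_CD replicate 2 gave 22. Of the 40 calls, 18 held under every alternative with no fold limit. METTL3 RNA itself did not pass between the 2 add-backs, with a difference of 0.19 log2 units (95% interval -0.03 to 0.41, adjusted p = 0.185). The comparisons share shM3 libraries, so each is given by its own values. Summed levels were 1768 and 1774 FPKM in shM3_WT, 1133 and 1167 in shM3_CD, 844.2 and 848.6 in shM3, and 1669 and 1697 in B5, and the 4 groups did not overlap. A list of 7 noncoding RNAs, RN7SK, RN7SL1, RMRP, RPPH1, MALAT1, NEAT1 and SNHG1, was read as a check of which RNA was sequenced. It summed to 126 to 166 FPKM in shM3_WT, 158 to 224 in shM3_CD, 391 to 447 in shM3 and 334 to 353 in B5, so it was lower in both add-backs than in shM3 and B5. Of the 7, 4 fell and 1 rose in shM3_WT relative to shM3 (median -1.58), and 2 fell in shM3_CD relative to shM3 (-0.71). In shM3_WT relative to B5, 4 fell and 1 rose (-1.49), while in shM3 relative to B5, 0 fell and 1 rose (0.05). The part of this in the add-back results was not tested.

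**Figure D1:**
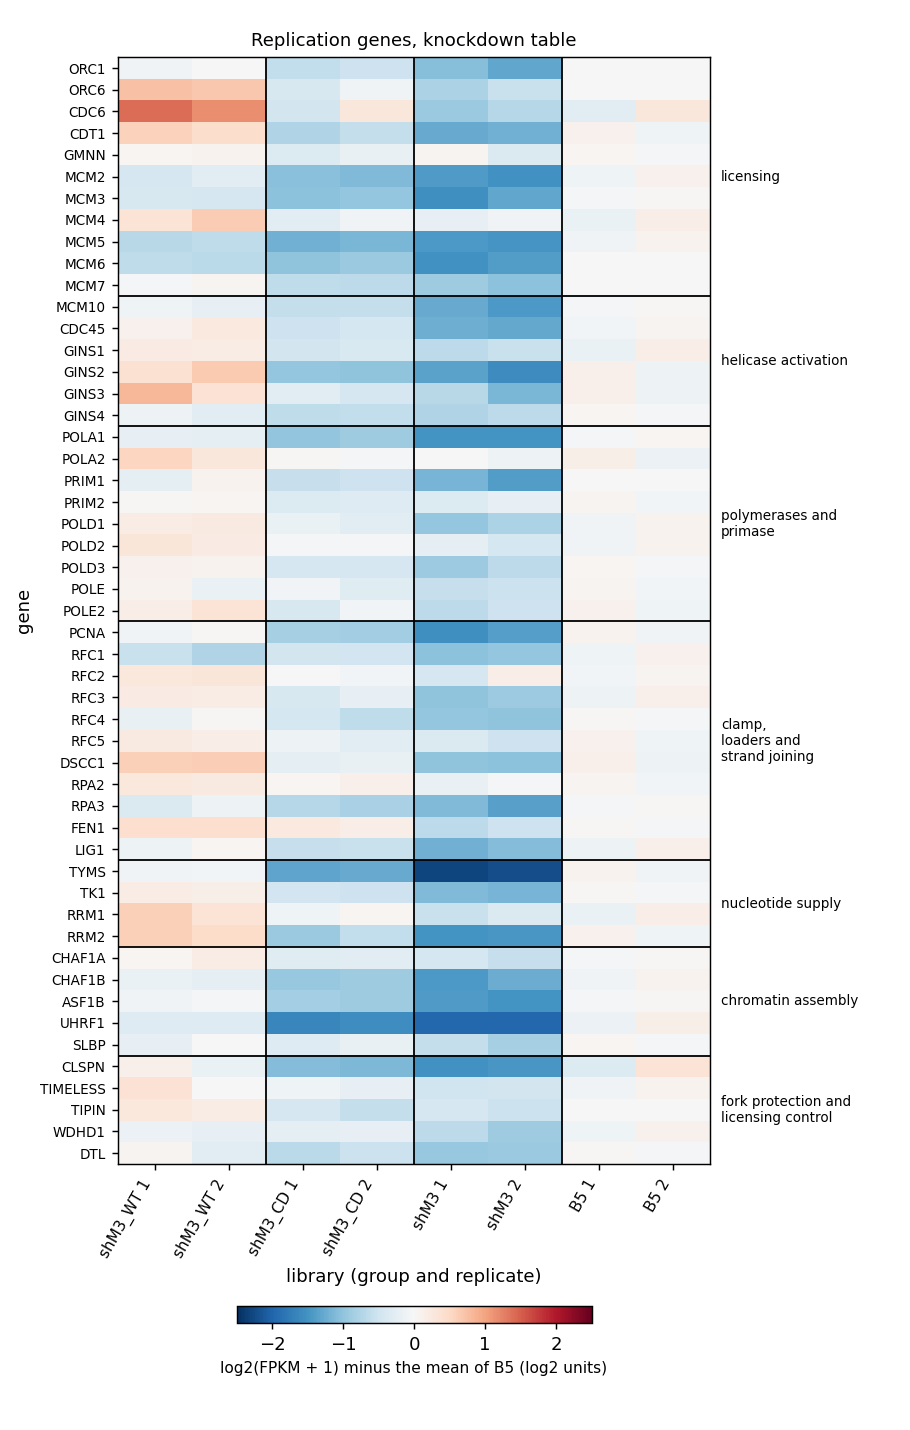
Each row is 1 of the 51 genes, grouped by step, and each column 1 library of the knockdown table. Colour is log2(FPKM + 1) minus the mean of B5 (log2 units). The shM3 columns are blue in nearly every row, the shM3_CD columns paler, and the shM3_WT columns near B5, with TYMS and UHRF1 the darkest rows.

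Among licensing genes 8 of 11 fell in shM3 relative to B5 (median -1.18), 10 of 11 rose in shM3_WT relative to shM3, 5 rose in shM3_CD relative to shM3 and 10 were higher in shM3_WT than in shM3_CD. With 1 library left out, 0 to 2 rose in shM3_CD relative to shM3, and 6 to 8 were higher in shM3_WT than in shM3_CD. MCM3, a subunit of the helicase ring, was at 78.8 and 78.01 FPKM in shM3_WT, 50.8 and 52.5 in shM3_CD, 35.2 and 41.7 in shM3 and 102 and 106 in B5. MCM7, of the same ring, was at 80.3 and 86.3 FPKM in shM3_WT, 52.5 and 51.4 in shM3_CD, 43.8 and 39.7 in shM3 and 80.95 and 82.6 in B5. In both, shM3 was lowest and shM3_CD next, while shM3_WT lay below B5 for MCM3 and around it for MCM7. The difference of shM3 from B5 was -1.42 log2 units (SE 0.09, adjusted p = 8.79e-05) for MCM3 and -0.95 log2 units (SE 0.08, adjusted p = 0.000219) for MCM7. The ring did not move evenly: MCM2, MCM5 and MCM6 had differences of -1.46, -1.45 and -1.46 log2 units, while MCM4 had -0.15 log2 units (95% interval -0.49 to 0.19, adjusted p = 0.442). GMNN, the licensing inhibitor, was at 48.9 and 50.4 FPKM in shM3_WT, 37.02 and 41.2 in shM3_CD, 49.8 and 36.5 in shM3 and 48.9 and 45.7 in B5, with overlapping groups and a difference between shM3 and B5 of -0.15 log2 units (95% interval -0.48 to 0.19, adjusted p = 0.449). CDC6, the loader that works with ORC, was at 38.7 and 32.8 FPKM in shM3_WT, 10.01 and 17.4 in shM3_CD, 6.98 and 8.27 in shM3 and 11.4 and 17.5 in B5. It rose by 2.09 log2 units (SE 0.27, adjusted p = 0.00129) in shM3_WT relative to shM3, the largest rise of the step, while its difference between shM3 and B5 did not pass (-0.82, adjusted p = 0.0520), and its 2 B5 libraries differed widely.

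All 6 genes of helicase activation fell in shM3 relative to B5 (median -1.08) and all 6 rose in shM3_WT relative to shM3 and were higher in shM3_WT than in shM3_CD, while 2 rose in shM3_CD relative to shM3. With 1 library left out, 2 to 4 were higher in shM3_WT than in shM3_CD. CDC45, which rides with the active helicase, was at 21.6 and 23.9 FPKM in shM3_WT, 13.6 and 14.6 in shM3_CD, 8.03 and 7.71 in shM3 and 19.1 and 20.98 in B5. Its shM3 libraries were the lowest and its shM3_CD libraries lay between shM3 and the other groups. The difference of shM3 from B5 was -1.25 log2 units (SE 0.09, adjusted p = 0.000161). That of shM3_CD from shM3 was 0.77 log2 units (SE 0.09, adjusted p = 0.00420). GINS4, a subunit of the GINS complex, was at 18.9 and 16.8 FPKM in shM3_WT, 12.99 and 13.1 in shM3_CD, 11.9 and 12.7 in shM3 and 21.4 and 19.98 in B5. GINS1, another subunit, was at 14.4 and 14.04 FPKM in shM3_WT, 8.68 and 9.24 in shM3_CD, 7.44 and 7.97 in shM3 and 10.8 and 13.97 in B5. In both, shM3_CD was close to shM3. GINS4 differed by -0.70 log2 units (SE 0.09, adjusted p = 0.00146) between shM3 and B5. GINS1 differed by -0.61 log2 units (SE 0.13, adjusted p = 0.00931), which did not pass without shM3 replicate 1 (adjusted p = 0.0529). GINS2 moved most, at 10.8 and 13.3 FPKM in shM3_WT, 3.66 and 3.54 in shM3_CD, 2.59 and 2.08 in shM3 and 8.93 and 7.35 in B5, and rose by 1.96 log2 units (SE 0.15, adjusted p = 0.000132) in shM3_WT relative to shM3. GINS2 had the largest difference between the 2 add-backs of all 51 genes, 1.496 log2 units (SE 0.15, adjusted p = 0.00129). MCM10, a scaffold for the active helicase, rose by 0.76 log2 units (SE 0.10, adjusted p = 0.00548) in shM3_CD relative to shM3. The fall of GINS3 did not pass when B5 replicate 1 (adjusted p = 0.0669) or shM3 replicate 2 (0.0718) was left out.

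Of 9 genes of polymerases and primase, 8 fell in shM3 relative to B5 with the shallowest median of the steps (-0.59), 9 rose in shM3_WT relative to shM3, 3 rose in shM3_CD relative to shM3, and 6 were higher in shM3_WT than in shM3_CD. With 1 library left out, 5 or 6 fell in shM3 relative to B5, 0 or 1 rose in shM3_CD relative to shM3, and 1 or 2 were higher in shM3_WT than in shM3_CD. POLD1, the catalytic subunit of polymerase delta, was at 36.6 and 37.6 FPKM in shM3_WT, 28.3 and 25.95 in shM3_CD, 15.9 and 18.2 in shM3 and 29.9 and 34.1 in B5. POLD2, an accessory subunit of the same enzyme, was at 77.6 and 72.7 FPKM in shM3_WT, 60.7 and 60.7 in shM3_CD, 53.3 and 46.1 in shM3 and 59.3 and 66.5 in B5. PRIM2, the large primase subunit, was at 21.3 and 21.7 FPKM in shM3_WT, 16.4 and 16.7 in shM3_CD, 16.3 and 18.1 in shM3 and 21.9 and 20.1 in B5. In POLD1 and POLD2 the shM3 libraries stood below all others, and POLD2 in shM3_CD fell within the B5 values, while PRIM2 in shM3_CD overlapped shM3. Between shM3 and B5, POLD1 differed by -0.87 log2 units (SE 0.10, adjusted p = 0.000873). The difference of POLD2 was -0.33 log2 units (SE 0.10, adjusted p = 0.0321). For PRIM2 it was -0.27 log2 units (SE 0.09, adjusted p = 0.0477). The POLD2 fall did not pass when B5 replicate 2 (adjusted p = 0.130) or shM3 replicate 2 (0.167) was left out. The PRIM2 fall did not pass when any of the 4 libraries was left out (adjusted p 0.163 without B5 replicate 1, 0.0553 without B5 replicate 2, 0.219 without shM3 replicate 1 and 0.0614 without shM3 replicate 2). POLE, the catalytic subunit of polymerase epsilon, and its partner POLE2 also failed to pass when B5 replicate 1 (adjusted p 0.0579 and 0.0852) or shM3 replicate 1 (0.0629 and 0.0906) was left out. The 2 subunits of the alpha enzyme parted: POLA1 was at 10.1 and 9.92 FPKM in shM3_WT, 5.38 and 5.85 in shM3_CD, 3.49 and 3.52 in shM3 and 11.2 and 12.2 in B5, whereas POLA2 was at 9.67 and 7.899 FPKM in shM3_WT, 6.45 and 6.12 in shM3_CD, 6.33 and 5.76 in shM3 and 7.09 and 5.65 in B5. POLA2 in shM3 and B5 overlapped, with a difference of -0.06 log2 units (95% interval -0.39 to 0.27, adjusted p = 0.767). The rises of POLA2, PRIM2 and POLE in shM3_WT relative to shM3 were lost without shM3 replicate 1 (0.528, 0.233 and 0.482 log2 units). They were also lost without shM3_WT replicate 1 (0.338, 0.316 and 0.381). POLA2 and POLE were lost without shM3 replicate 2 as well, and PRIM2 without shM3_WT replicate 2.

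In the clamp, clamp loader and strand joining group 9 of 11 fell in shM3 relative to B5 (median -0.98), 10 rose in shM3_WT relative to shM3, 7 rose in shM3_CD relative to shM3 and 7 were higher in shM3_WT than in shM3_CD. Leaving out 1 library left 2 or 3 for shM3_CD against shM3, and 2 to 5 for shM3_WT against shM3_CD. PCNA, the sliding clamp, was at 113 and 122 FPKM in shM3_WT, 67.02 and 64.9 in shM3_CD, 40.6 and 45.7 in shM3 and 127 and 113 in B5. FEN1, which trims the flaps between lagging-strand fragments, was at 73.5 and 73.2 FPKM in shM3_WT, 64.99 and 60.7 in shM3_CD, 33.9 and 37.8 in shM3 and 55.3 and 53.5 in B5. RPA2, a subunit of the single-strand binding protein, was at 57.3 and 56.2 FPKM in shM3_WT, 49.5 and 52.4 in shM3_CD, 41.8 and 46.3 in shM3 and 50.5 and 45.3 in B5. PCNA in shM3_CD lay between shM3 and the other groups, whereas FEN1 in shM3_CD lay above B5 and below shM3_WT, and RPA2 varied least of the 3. Between shM3 and B5, PCNA differed by -1.45 log2 units (SE 0.09, adjusted p = 8.79e-05). The difference of FEN1 was -0.59 log2 units (SE 0.08, adjusted p = 0.00172). For RPA2 it was -0.12 log2 units (95% interval -0.33 to 0.09, adjusted p = 0.329). Between shM3_CD and shM3, FEN1 differed by 0.79 log2 units (SE 0.08, adjusted p = 0.00212), and between the 2 add-backs by 0.22 log2 units (95% interval 0.03 to 0.41, adjusted p = 0.0875). PCNA rose by 0.60 log2 units (SE 0.09, adjusted p = 0.00966) in shM3_CD relative to shM3, which was lost without shM3 replicate 1 (adjusted p = 0.0655), shM3_CD replicate 1 (0.0645) or shM3_CD replicate 2 (0.0538). DSCC1, of the clamp loader variant that serves sister chromatid cohesion, rose relative to shM3 by 1.63 log2 units (SE 0.11, adjusted p = 9.12e-05) in shM3_WT. In shM3_CD it rose by 0.80 log2 units (SE 0.11, adjusted p = 0.00617). RFC1, the large loader subunit, was the exception of the add-backs, at 13.98 and 12.2 FPKM in shM3_WT, 15.2 and 14.99 in shM3_CD, 9.82 and 10.4 in shM3 and 19.5 and 22.9 in B5. Its call in shM3_WT relative to shM3 was lost when any of the 4 libraries was left out (adjusted p 0.165 without shM3 replicate 1, 0.0999 without shM3 replicate 2, 0.199 without shM3_WT replicate 1 and 0.0540 without shM3_WT replicate 2). The fall of RFC5 in shM3 relative to B5 did not pass when B5 replicate 1 (adjusted p = 0.0806) or shM3 replicate 2 (0.102) was left out.

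All 4 genes of nucleotide supply fell in shM3 relative to B5 (median -1.30) and rose in shM3_WT relative to shM3. All 4 were higher in shM3_WT than in shM3_CD, and 3 rose in shM3_CD relative to shM3. The RRM1 call between the add-backs was lost whichever library was left out, with differences from 0.378 to 0.622 log2 units. The RRM2 call in shM3_CD relative to shM3 was lost without shM3 replicate 1 (0.686 log2 units), shM3 replicate 2 (0.722) or shM3_CD replicate 2 (0.546). TYMS was at 97.98 and 99.4 FPKM in shM3_WT, 41.1 and 43.2 in shM3_CD, 20.4 and 21.8 in shM3 and 111 and 98.1 in B5. Relative to shM3 it rose by 2.18 log2 units (SE 0.08, adjusted p = 1.52e-05) in shM3_WT. In shM3_CD it rose by 0.97 log2 units (SE 0.08, adjusted p = 0.00121). The add-backs differed by 1.21 log2 units (SE 0.08, adjusted p = 0.000501). TK1, the thymidine kinase of the salvage route, was at 118 and 116 FPKM in shM3_WT, 74.97 and 72.3 in shM3_CD, 48.1 and 46.4 in shM3 and 107 and 102 in B5. RRM2, the small subunit of ribonucleotide reductase and the one that limits its activity over the cycle, was at 79.5 and 72.9 FPKM in shM3_WT, 27.1 and 34.00 in shM3_CD, 18.01 and 18.5 in shM3 and 56.3 and 48.9 in B5. RRM1, the large subunit, was at 83.6 and 70.5 FPKM in shM3_WT, 51.03 and 57.1 in shM3_CD, 37.4 and 42.5 in shM3 and 49.3 and 61.8 in B5. TYMS, TK1 and RRM2 kept the order shM3_WT above shM3_CD above shM3 in every library, and RRM1 had it too with smaller gaps. RRM1 fell with a difference of -0.46 log2 units (SE 0.14, adjusted p = 0.0379) in shM3 relative to B5, which did not pass when B5 replicate 2 (adjusted p = 0.166), shM3 replicate 1 (0.173) or shM3 replicate 2 (0.0657) was left out.

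All 5 chromatin assembly genes fell in shM3 relative to B5 (median -1.34) and rose in shM3_WT relative to shM3, while 2 rose in shM3_CD relative to shM3 and 4 were higher in shM3_WT than in shM3_CD. SLBP was lost from the 2 whichever library was left out. SLBP, which binds histone messages in S phase, was at 54.3 and 63.4 FPKM in shM3_WT, 49.97 and 55.6 in shM3_CD, 41.3 and 34.8 in shM3 and 65.5 and 60.7 in B5. ASF1B, a histone chaperone of dividing cells, was at 57.8 and 60.4 FPKM in shM3_WT, 33.6 and 32.8 in shM3_CD, 22.6 and 21.1 in shM3 and 60.03 and 62.9 in B5. UHRF1 was at 42.01 and 42.3 FPKM in shM3_WT, 16.3 and 17.4 in shM3_CD, 12.8 and 12.8 in shM3 and 47.5 and 58.7 in B5. UHRF1 in shM3_CD stayed near shM3, whereas SLBP in shM3_CD overlapped shM3_WT. ASF1B differed by -1.45 log2 units (SE 0.07, adjusted p = 4.24e-05) between shM3 and B5. The difference of SLBP was -0.72 log2 units (SE 0.12, adjusted p = 0.00359). UHRF1 rose by 1.64 log2 units (SE 0.11, adjusted p = 8.55e-05) in shM3_WT relative to shM3, while the difference of shM3_CD from shM3 was 0.37 log2 units (95% interval 0.11 to 0.62, adjusted p = 0.0744). CHAF1B, of the CAF-1 complex that deposits new histones, fell with a difference of -1.34 log2 units (SE 0.11, adjusted p = 0.000236) in shM3 relative to B5, and its partner CHAF1A by -0.51 log2 units (SE 0.09, adjusted p = 0.00556).

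All 5 genes of fork protection and licensing control fell in shM3 relative to B5 (median -0.78) and rose in shM3_WT relative to shM3, while 1 rose in shM3_CD relative to shM3 and 3 were higher in shM3_WT than in shM3_CD. Those 3 became 1 without shM3_WT replicate 1, shM3_CD replicate 1 or shM3_CD replicate 2, with CLSPN and DTL lost. CLSPN, the adaptor of the checkpoint kinase at stalled forks, was at 16.8 and 13.5 FPKM in shM3_WT, 6.69 and 6.47 in shM3_CD, 4.68 and 4.96 in shM3 and 11.9 and 19.6 in B5. DTL, which targets CDT1 for destruction on loaded PCNA, was at 14.4 and 11.1 FPKM in shM3_WT, 8.22 and 9.16 in shM3_CD, 6.64 and 6.67 in shM3 and 13.9 and 13.5 in B5. TIMELESS, of the fork protection complex, was at 14.4 and 11.1 FPKM in shM3_WT, 10.2 and 9.49 in shM3_CD, 7.62 and 7.74 in shM3 and 10.4 and 11.8 in B5. The shM3 libraries were lowest in each of these, and in CLSPN the 2 B5 libraries differed widely. CLSPN differed by -1.48 log2 units (SE 0.21, adjusted p = 0.00209) between shM3 and B5 and DTL by -0.94 log2 units (SE 0.13, adjusted p = 0.00175). TIMELESS differed by -0.48 log2 units (SE 0.13, adjusted p = 0.0287), which did not pass when B5 replicate 2 (adjusted p = 0.120), shM3 replicate 1 (0.105) or shM3 replicate 2 (0.0939) was left out. Its partner TIPIN fell with a difference of -0.48 log2 units (SE 0.10, adjusted p = 0.0108), lost without shM3 replicate 2 (adjusted p = 0.0625). The 1 gene that rose with METTL3-CD was WDHD1, which couples the helicase to polymerase alpha, at 8.78 and 8.99 FPKM in shM3_CD and 6.296 and 5.21 in shM3, a call lost whichever of the 4 libraries was left out.

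Set against B5, shM3_WT was near its level and shM3_CD below it. In shM3_WT, 9 of 51 genes were higher and 5 lower than in B5, where 11.8% of all genes were higher and 18.2% lower, and the median log2 difference was 0.07, against -0.07 over all genes. With TMM factors the split was 15 higher and 4 lower, and with equal medians 17 and 4. Such scaling moves all genes of a library together. The share of all genes called under it is not given, so the shift is not read as one of these genes. The call of ORC6, an origin recognition subunit, held under every alternative with no fold limit at 0.71 log2 units (SE 0.13, adjusted p = 0.00696). So did those of DSCC1 at 0.61 log2 units (SE 0.11, adjusted p = 0.00696) and FEN1 at 0.43 log2 units (SE 0.08, adjusted p = 0.00831). The lower calls that held were MCM5 at -0.67 log2 units (SE 0.09, adjusted p = 0.00200) and MCM6 at -0.66 log2 units (SE 0.09, adjusted p = 0.00199). RFC1 was the other, at -0.66 log2 units (SE 0.11, adjusted p = 0.00517). The other 8 calls, CDC6, CDT1, MCM4, GINS2, RRM1 and RRM2 higher and MCM2 and MCM3 lower, were lost under at least 1 alternative, CDC6 (1.27, adjusted p = 0.0131) for instance without B5 replicate 1 (0.0630) or shM3_WT replicate 1 (0.0711). The count of 14 calls was 9 without B5 replicate 2, 8 without shM3_WT replicate 1 and 8 without shM3_WT replicate 2. TYMS, the deepest fall of the knockdown, differed between shM3_WT and B5 by -0.08 log2 units (95% interval -0.28 to 0.12, adjusted p = 0.524), and PCNA by -0.03 log2 units (95% interval -0.25 to 0.19, adjusted p = 0.840). In shM3_CD, 30 of 51 were lower and 0 higher than in B5, with 15.2% of all genes lower and 14.8% higher. The median was -0.48, and 19 of the 30 calls held under every alternative with no fold limit. UHRF1 was lowest against B5, at -1.59 log2 units (SE 0.11, adjusted p = 0.000215). Next were TYMS at -1.29 log2 units (SE 0.08, adjusted p = 0.000201) and MCM5 at -1.17 log2 units (SE 0.09, adjusted p = 0.000271). FEN1 in shM3_CD differed from B5 by 0.21 log2 units (95% interval 0.02 to 0.40, adjusted p = 0.0973) and RRM1 by -0.03 log2 units (95% interval -0.36 to 0.30, adjusted p = 0.887).

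**Figure D2:**
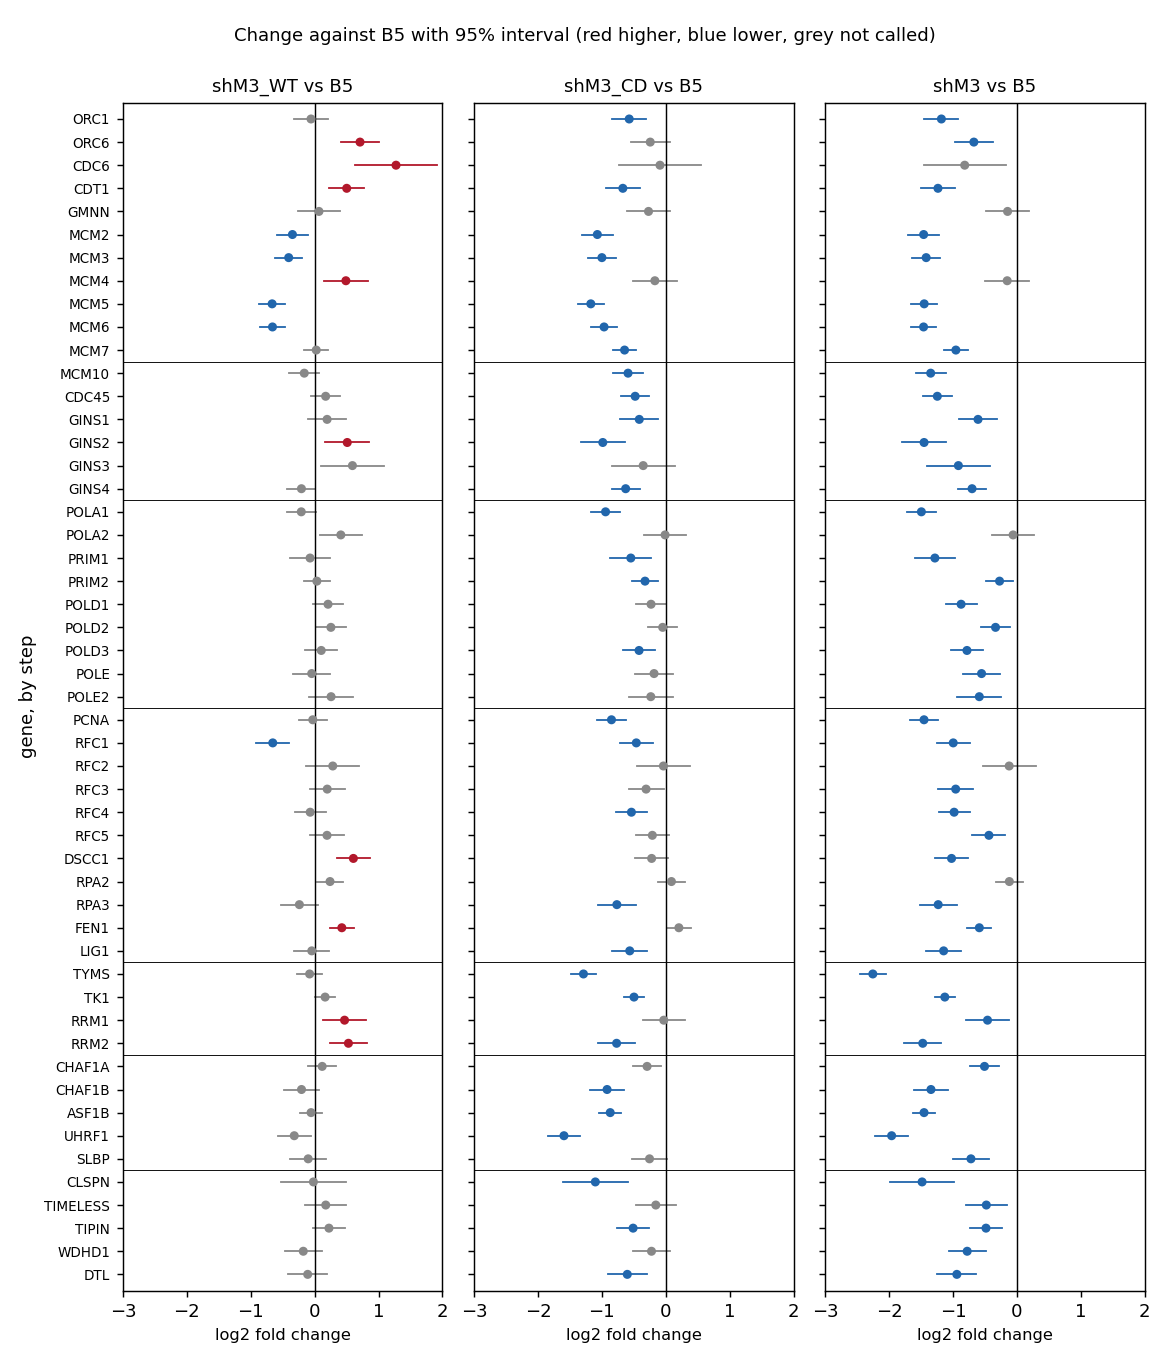
Log2 fold change against B5 (horizontal axis, log2 units) of each of the 51 genes for shM3_WT, shM3_CD and shM3, with 95% intervals from limma. Red points were higher, blue lower and grey not called: 9 red and 5 blue in shM3_WT, 30 blue in shM3_CD and 45 blue in shM3. All panels share the B5 libraries.

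In the DMSO table each of the 3 compounds went with lower RNA of most of the genes. JQ1, a BET bromodomain inhibitor, lowered 45 of 51 relative to DMSO and raised 0, with 20.6% of the 14936 genes tested lower and 14.5% higher. The median log2 difference was -0.95, against -0.04 over all genes. Molib lowered 44 and raised 0, with 20.5% of all genes lower and 14.8% higher. The medians were -0.90 and -0.03. I-BET151 lowered 40 and raised 0, with 14.1% of all genes lower and 13.9% higher. The median of the 51 was -0.62, against -0.0021 over all genes. The I-BET151 count was 25 without DMSO replicate 1 and 23 without DMSO replicate 2. Under every alternative run with no fold limit, 35 of the 45 JQ1 calls, 35 of the 44 Molib calls and 22 of the 40 I-BET151 calls held. The 3 comparisons share the DMSO libraries, and JQ1 is given as libraries a and b, since its columns carry no replicate number. Summed over the 51 genes, the level was 1093 and 1062 FPKM with JQ1, 1059 and 1091 with Molib, 1331 and 1411 with I-BET151, and 2108 and 2117 with DMSO, with no overlap between any compound and DMSO.

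**Figure D3:**
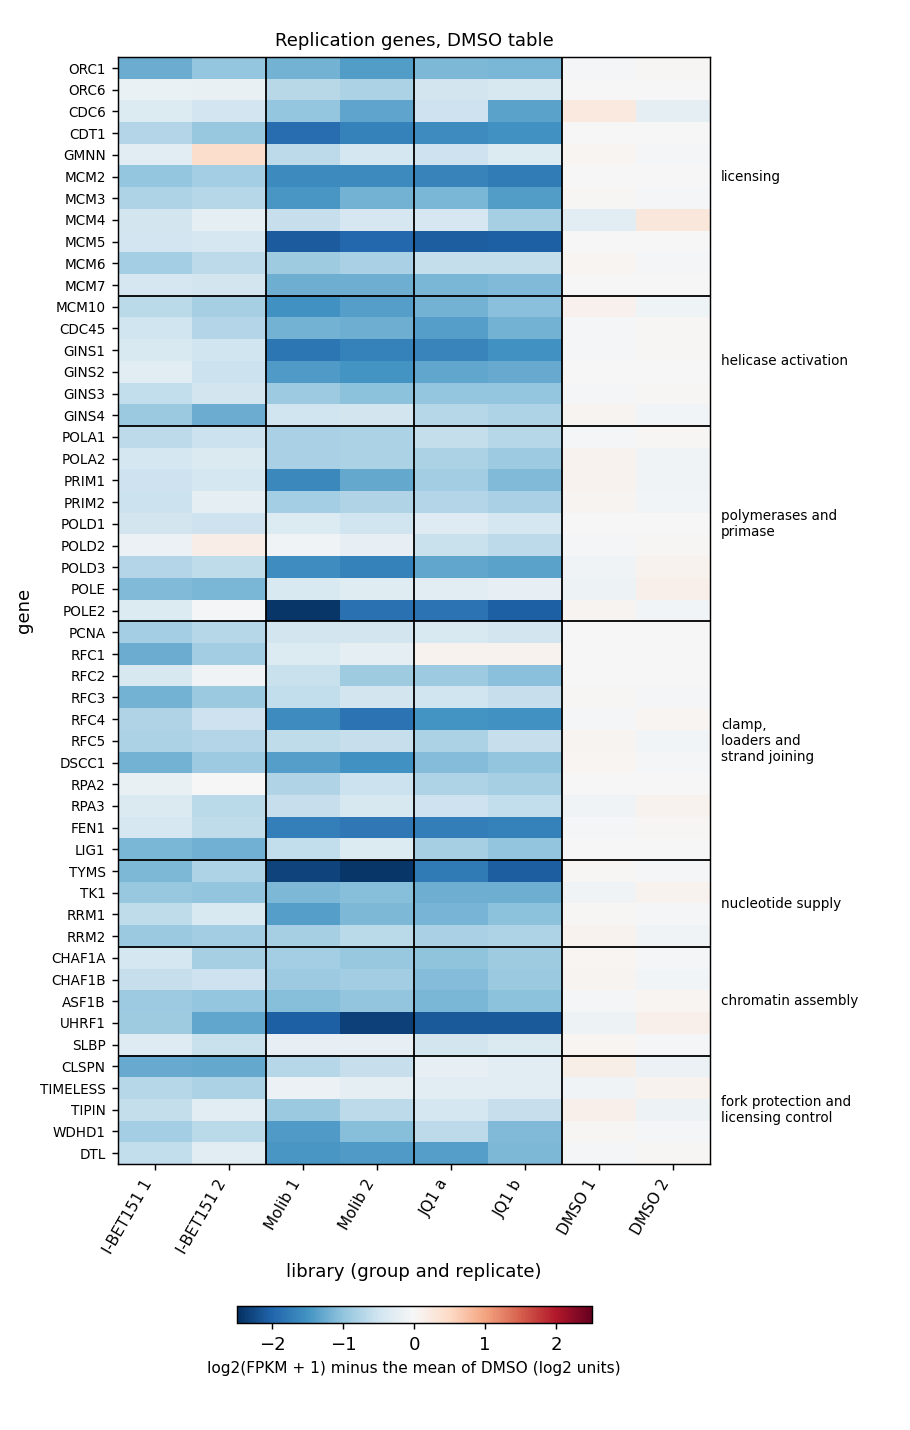
Rows are the 51 genes by step and columns the libraries of the DMSO table, with colour for log2(FPKM + 1) minus the mean of DMSO (log2 units). JQ1 and Molib columns look alike, with POLE2, MCM5, UHRF1 and TYMS among the darkest rows, and the I-BET151 columns are paler in those rows and darker in POLE, RFC1 and CLSPN.

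Of the 11 licensing genes, 9 fell with JQ1, 9 with Molib and 7 with I-BET151. MCM3 was at 43.00 and 35.9 FPKM with JQ1, 34.2 and 41.5 with Molib, 55.9 and 57.7 with I-BET151 and 96.99 and 94.2 with DMSO. MCM7 was at 49.1 and 50.7 FPKM with JQ1, 46.8 and 47.00 with Molib, 82.5 and 79.4 with I-BET151 and 111 and 109 with DMSO. For both, JQ1 and Molib were lowest and I-BET151 lay between them and DMSO. MCM5 showed the widest gap between compounds in this step, at 10.8 and 11.002 FPKM with JQ1, 10.7 and 11.7 with Molib, 34.5 and 36.1 with I-BET151 and 48.8 and 48.5 with DMSO. Relative to DMSO it fell with a difference of -2.06 log2 units (SE 0.09, adjusted p = 2.40e-05) with JQ1. With Molib the difference was -2.02 log2 units (SE 0.09, adjusted p = 2.68e-05). With I-BET151 it was -0.45 log2 units (SE 0.09, adjusted p = 0.0127), a call lost without DMSO replicate 1 (adjusted p = 0.0714) or DMSO replicate 2 (0.0688). GMNN was at 30.003 and 34.4 FPKM with JQ1, 27.4 and 32.2 with Molib, 36.2 and 59.9 with I-BET151 and 45.5 and 41.9 with DMSO, and did not pass in any of the 3 comparisons, nor did MCM4. CDT1, which with CDC6 loads the helicase, was at 11.2 and 11.7 FPKM with JQ1, 8.73 and 10.3 with Molib, 20.8 and 17.8 with I-BET151 and 35.2 and 35.6 with DMSO, with no compound overlapping DMSO.

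All 6 helicase activation genes fell with each compound. With I-BET151 the count was 3 without DMSO replicate 1 (GINS1, GINS2 and GINS3 lost) and 2 without DMSO replicate 2 (these and CDC45 lost). CDC45 was at 12.5 and 14.3 FPKM with JQ1, 14.4 and 13.9 with Molib, 23.6 and 19.9 with I-BET151 and 33.3 and 34.4 with DMSO. GINS1 was at 3.78 and 4.28 FPKM with JQ1, 3.32 and 3.65 with Molib, 10.52 and 9.61 with I-BET151 and 13.8 and 14.3 with DMSO. GINS4 was at 11.2 and 10.8 FPKM with JQ1, 13.2 and 13.6 with Molib, 9.54 and 7.52 with I-BET151 and 20.1 and 18.1 with DMSO. The order differed between the last 2: GINS1 was lowest with JQ1 and Molib, and GINS4 lowest with I-BET151. GINS1 fell with a difference of -1.58 log2 units (SE 0.11, adjusted p = 0.000153) with JQ1. For Molib it was -1.75 log2 units (SE 0.11, adjusted p = 9.55e-05). GINS4 with I-BET151 had a difference of -1.08 log2 units (SE 0.13, adjusted p = 0.00141). With Molib the GINS4 difference was -0.48 log2 units (SE 0.13, adjusted p = 0.0248), a call lost with a replicate block (adjusted p = 0.0558). That Molib call was also lost whichever library was left out, with differences from -0.549 to -0.41 log2 units.

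Of the 9 polymerase and primase genes, 8 fell with JQ1, 7 with Molib and 6 with I-BET151. The I-BET151 count was 3 without DMSO replicate 1 and 2 without DMSO replicate 2. POLD2 was at 49.7 and 46.8 FPKM with JQ1, 69.9 and 63.8 with Molib, 66.5 and 82.6 with I-BET151 and 71.98 and 75.7 with DMSO. POLD1 was at 35.7 and 32.6 FPKM with JQ1, 35.1 and 31.3 with Molib, 32.1 and 30.6 with I-BET151 and 44.2 and 44.9 with DMSO. PRIM2 was at 11.4 and 10.6 FPKM with JQ1, 10.4 and 11.2 with Molib, 13.2 and 16.4 with I-BET151 and 20.5 and 18.6 with DMSO. POLD2 with JQ1 stood below the other groups, and with I-BET151 it overlapped DMSO. POLE2 was at 4.07 and 3.45 FPKM with JQ1, 2.41 and 4.03 with Molib, 13.5 and 16.7 with I-BET151 and 18.1 and 16.5 with DMSO, and fell with a difference of -1.94 log2 units (SE 0.20, adjusted p = 0.000568) with JQ1. Under Molib it came to -2.14 log2 units (SE 0.20, adjusted p = 0.000366), whereas with I-BET151 it differed from DMSO by -0.19 log2 units (95% interval -0.66 to 0.28, adjusted p = 0.520). POLE, the catalytic subunit of the same enzyme, had the reverse order, at 19.04 and 19.8 FPKM with JQ1, 17.6 and 18.5 with Molib, 10.3 and 9.89 with I-BET151 and 21.1 and 25.3 with DMSO, and fell with a difference of -1.12 log2 units (SE 0.11, adjusted p = 0.000787) with I-BET151, against -0.24 log2 units (95% interval -0.51 to 0.03, adjusted p = 0.141) with JQ1.

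In the clamp and strand joining group 10 of 11 fell with JQ1, 10 with Molib and 9 with I-BET151. The Molib count was 6 without DMSO replicate 2, and the I-BET151 count 6 there. PCNA was at 126 and 119 FPKM with JQ1, 119 and 119 with Molib, 91.1 and 100.2 with I-BET151 and 164 and 164 with DMSO. FEN1 was at 22.6 and 23.3 FPKM with JQ1, 23.1 and 21.6 with Molib, 57.3 and 49.6 with I-BET151 and 75.5 and 79.5 with DMSO. RPA2 was at 40.8 and 38.8 FPKM with JQ1, 41.04 and 48.1 with Molib, 61.8 and 69.5 with I-BET151 and 71.01 and 69.4 with DMSO. All compound libraries lay below DMSO for PCNA and FEN1, and FEN1 was lowest with JQ1 and Molib. FEN1 fell with a difference of -1.71 log2 units (SE 0.10, adjusted p = 8.40e-05) with JQ1. With Molib the difference was -1.75 log2 units (SE 0.10, adjusted p = 7.08e-05). PCNA fell with a difference of -0.42 log2 units (SE 0.09, adjusted p = 0.0107) with JQ1, lost without DMSO replicate 1 (adjusted p = 0.0609) or DMSO replicate 2 (0.0603). With I-BET151 its difference was -0.78 log2 units (SE 0.09, adjusted p = 0.00127). RFC1 was at 18.4 and 18.5 FPKM with JQ1, 13.3 and 14.4 with Molib, 6.75 and 9.05 with I-BET151 and 17.1 and 17.4 with DMSO, just above DMSO with JQ1 and well below it with I-BET151, a difference of -1.05 log2 units (SE 0.14, adjusted p = 0.00209). LIG1, the ligase that seals lagging-strand nicks, was at 17.7 and 15.7 FPKM with JQ1, 20.5 and 25.03 with Molib, 13.97 and 13.3 with I-BET151 and 32.5 and 31.7 with DMSO, and fell with a difference of -1.17 log2 units (SE 0.12, adjusted p = 0.000866) with I-BET151.

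All 4 nucleotide supply genes fell with each compound. TYMS was at 34.6 and 28.3 FPKM with JQ1, 23.6 and 21.4 with Molib, 55.2 and 70.4 with I-BET151 and 123 and 118 with DMSO. TK1 was at 46.7 and 47.04 FPKM with JQ1, 49.9 and 52.4 with Molib, 56.5 and 55.4 with I-BET151 and 104 and 117 with DMSO. RRM1 was at 35.9 and 39.8 FPKM with JQ1, 30.8 and 36.9 with Molib, 52.4 and 63.00 with I-BET151 and 84.01 and 79.9 with DMSO. No compound library reached a DMSO library for these. RRM1 with I-BET151 differed from DMSO by -0.50 log2 units (SE 0.13, adjusted p = 0.0281). That call was lost with a replicate block (adjusted p = 0.0563), with no filter (0.0575) and with only the 2 groups (0.0634). It was also lost without DMSO replicate 1 (-0.469 log2 units), DMSO replicate 2 (-0.54) or I-BET151 replicate 1 (-0.374). TYMS fell with a difference of -1.91 log2 units (SE 0.15, adjusted p = 0.000183) with JQ1. For Molib it was -2.37 log2 units (SE 0.15, adjusted p = 7.97e-05). With I-BET151 it was -0.94 log2 units (SE 0.15, adjusted p = 0.00425). RRM2 was at 40.1 and 41.5 FPKM with JQ1, 39.4 and 44.1 with Molib, 37.1 and 38.6 with I-BET151 and 75.6 and 66.9 with DMSO, alike in the 3 compounds. Of 5 chromatin assembly genes, 5 fell with JQ1, 4 with Molib and 5 with I-BET151. The I-BET151 count was 2 without DMSO replicate 1 (CHAF1A, CHAF1B and SLBP lost) and 3 without DMSO replicate 2 (CHAF1A and SLBP lost). SLBP was at 42.1 and 45.3 FPKM with JQ1, 50.7 and 50.2 with Molib, 46.4 and 39.2 with I-BET151 and 60.8 and 56.1 with DMSO. The SLBP call with JQ1 was lost whichever library was left out, with differences from -0.468 to -0.352 log2 units. ASF1B was at 35.5 and 38.5 FPKM with JQ1, 37.5 and 39.2 with Molib, 41.7 and 40.2 with I-BET151 and 76.6 and 81.8 with DMSO. UHRF1 was at 10.4 and 10.3 FPKM with JQ1, 10.9 and 8.59 with Molib, 25.3 and 18.8 with I-BET151 and 43.8 and 51.8 with DMSO. ASF1B was alike in the compounds, and UHRF1 was lowest with JQ1 and Molib. UHRF1 fell with a difference of -2.10 log2 units (SE 0.17, adjusted p = 0.000236) with JQ1. Under Molib it came to -2.19 log2 units (SE 0.17, adjusted p = 0.000182). With I-BET151 it was -1.09 log2 units (SE 0.17, adjusted p = 0.00425). Of the 5 genes of fork protection and licensing control, 3 fell with JQ1, 4 with Molib and 3 with I-BET151. The JQ1 count was 1 without DMSO replicate 1, DMSO replicate 2 or JQ1 library b (TIPIN and WDHD1 lost), and the Molib count 2 without DMSO replicate 1 or Molib replicate 1 (CLSPN and TIPIN lost). CLSPN was at 11.4 and 10.96 FPKM with JQ1, 7.74 and 8.62 with Molib, 4.99 and 4.89 with I-BET151 and 14.8 and 11.99 with DMSO. TIMELESS was at 17.95 and 17.8 FPKM with JQ1, 19.8 and 18.8 with Molib, 13.01 and 12.3 with I-BET151 and 20.5 and 23.6 with DMSO. DTL was at 4.95 and 6.12 FPKM with JQ1, 4.66 and 4.78 with Molib, 9.04 and 11.9 with I-BET151 and 14.2 and 14.7 with DMSO. CLSPN and TIMELESS were lowest with I-BET151, and DTL with JQ1 and Molib. CLSPN fell with a difference of -1.27 log2 units (SE 0.13, adjusted p = 0.000747) with I-BET151, the largest fall of the 51 with that compound, and differed from DMSO by -0.23 log2 units (95% interval -0.53 to 0.07, adjusted p = 0.197) with JQ1.

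The 3 pairs of compounds were compared at the same dose and time, with p-values adjusted over all genes of each pair. Between Molib and JQ1, limma called 0 of 51 and 0.0% of all 14936 genes, while 10 of the 51 and 1227 of all genes were under an unadjusted p of 0.05. Each interval is for 1 gene, without adjustment over the 51, and does not bound them as a set. The 2 extremes of the difference of Molib from JQ1 were TYMS and POLD2, both with 0 outside the interval. TYMS differed by -0.46 log2 units (95% interval -0.81 to -0.11, adjusted p = 0.530). POLD2 differed by 0.46 log2 units (95% interval 0.17 to 0.75, adjusted p = 0.528). The difference was 0.03 log2 units (95% interval -0.19 to 0.25, adjusted p = 0.947) for MCM5. For PCNA it was -0.04 log2 units (95% interval -0.25 to 0.17, adjusted p = 0.921). Between I-BET151 and JQ1, 24 of 51 were higher with I-BET151 and 6 lower, with 24.6% and 20.1% of all genes. The largest was POLE2 at 1.75 log2 units (SE 0.20, adjusted p = 0.000535). MCM5 followed at 1.61 log2 units (SE 0.09, adjusted p = 3.40e-05). FEN1 came after it at 1.18 log2 units (SE 0.10, adjusted p = 0.000179). The 6 that were lower with I-BET151 than with JQ1 were RFC1 at -1.14 (adjusted p = 0.000644), CLSPN at -1.04 (0.000708), POLE at -0.88 (0.000893), RFC3 at -0.51, TIMELESS at -0.47 and PCNA at -0.36. The calls of RFC3, TIMELESS and PCNA were lost without JQ1 library a. The PCNA call was also lost without JQ1 library b and with only the 2 groups (adjusted p = 0.0706). Between I-BET151 and Molib, 26 were higher with I-BET151 and 8 lower, with 23.6% and 19.9% of all genes. POLE2 differed by 1.95 log2 units (SE 0.20, adjusted p = 0.000348). The difference of MCM5 was 1.57 log2 units (SE 0.09, adjusted p = 3.73e-05). For TYMS it was 1.43 log2 units (SE 0.15, adjusted p = 0.000353). The 8 lower were those same 6 with LIG1 at -0.69 and GINS4 at -0.60. PCNA and RFC3 were lost without Molib replicate 2. PCNA was also lost without Molib replicate 1, with a replicate block (adjusted p = 0.0851) and with only the 2 groups (0.101).

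**Figure D4:**
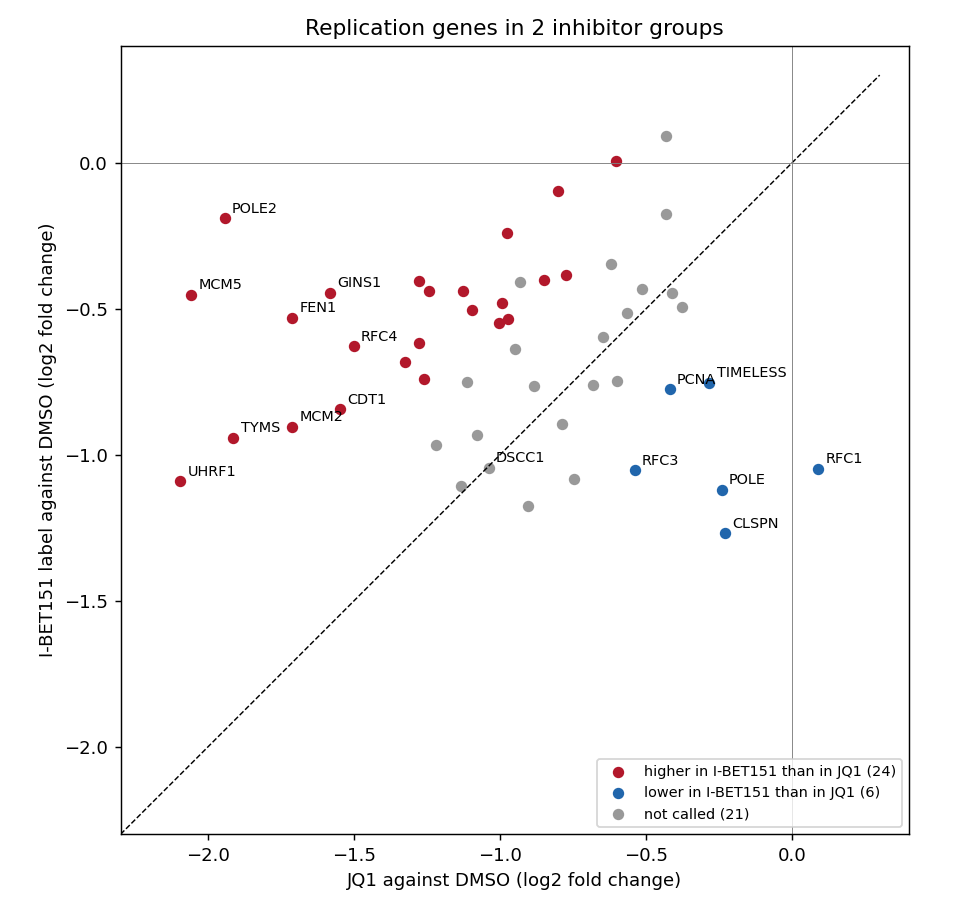
Each point is 1 of the 51 genes, with its log2 fold change against DMSO under JQ1 (horizontal axis) and under I-BET151 (vertical axis), both from the same DMSO libraries, and the dashed line marks equal values. The 24 red genes were higher with I-BET151 than with JQ1, led by POLE2 and MCM5, and the 6 blue genes lower, led by RFC1 and CLSPN.

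Genes known to respond to BET inhibition were read beside these results. Of the 6 listed, 4 rose and 0 fell with JQ1 relative to DMSO (median 1.57), and likewise with Molib (1.38). With I-BET151 1 rose and 1 fell (-0.15). TXNIP, a known riser, was at 328 and 328 FPKM with JQ1, 284 and 282 with Molib, 206 and 228 with I-BET151 and 56.5 and 50.03 with DMSO, so it was above DMSO with all 3 compounds. HEXIM1, which rises with BET inhibitors in many cells, was at 73.8 and 76.7 FPKM with JQ1, 72.9 and 69.6 with Molib, 10.3 and 6.37 with I-BET151 and 26.5 and 29.4 with DMSO. BRD2, itself a BET protein, was at 224 and 215 FPKM with JQ1, 175 and 179 with Molib, 61.3 and 62.6 with I-BET151 and 64.9 and 64.6 with DMSO. HEXIM1 fell with a difference of -1.66 log2 units (SE 0.19, adjusted p = 0.00113) with I-BET151, and BRD2 with I-BET151 was just below its DMSO level. In the libraries labelled I-BET151 3 of the usual responders, counting SERPINI1 at 20.7 and 22.2 FPKM with JQ1, 23.7 and 21.2 with Molib, 1.68 and 2.33 with I-BET151 and 2.35 and 2.88 with DMSO, were not above DMSO, and their bearing on the replication genes was not tested. Marker lists of other cell types also moved with the groups. The haematopoietic list, nearly all LAPTM5, summed to 4.13 to 4.57 FPKM with JQ1, 4.99 to 5.80 with Molib, 26.3 to 32.2 with I-BET151 and 25.9 to 28.1 with DMSO, and in the knockdown table to 31.1 to 32.7 in shM3_WT, 17.1 to 18.3 in shM3_CD, 6.90 to 8.87 in shM3 and 35.1 to 36.2 in B5, with PTPRC, CD3E and MS4A1 at or near 0. The luminal list, nearly all KRT19, summed to 977 to 995 with JQ1, 901 to 964 with Molib, 362 to 381 with I-BET151 and 241 to 257 with DMSO, and to 230 to 239 in shM3_WT, 344 to 354 in shM3_CD, 440 to 459 in shM3 and 228 to 247 in B5, with ESR1, PGR, FOXA1 and CDH1 at or near 0. Its genes did not move together: of 4 tested, 1 rose and 2 fell with JQ1 relative to DMSO (median -0.69). With Molib 1 rose and 2 fell (-0.34), and with I-BET151 1 rose and 0 fell (0.20). In shM3 relative to B5, 2 rose and 0 fell (0.30). The list of 7 noncoding RNAs summed to 167 to 197 FPKM with JQ1, 139.5 to 186 with Molib, 65.2 to 164 with I-BET151 and 134 to 196 with DMSO, and of 6 tested 3 fell and 1 rose in I-BET151 relative to JQ1 (median -0.81). The part of these lists in the results was not tested.

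Other genes of the cell cycle were counted in the same fits. Of 63 further replication genes, 35 fell and 7 rose in shM3 relative to B5 (median -0.38), and 39 rose and 6 fell in shM3_WT relative to shM3. TOP2A, the topoisomerase that untangles replicated DNA, was at 111 and 113 FPKM in shM3_WT, 61.5 and 64.1 in shM3_CD, 29.7 and 30.4 in shM3 and 109 and 127 in B5. E2F1, an activating E2F factor, was at 40.2 and 37.9 FPKM in shM3_WT, 15.7 and 17.5 in shM3_CD, 9.12 and 9.98 in shM3 and 42.8 and 37.7 in B5. Both were lowest in shM3, next in shM3_CD, and the shM3_WT values were within or beside those of B5. Of the same 63 genes, 31 fell and 9 rose with JQ1 (median -0.43), 34 fell and 6 rose with Molib (-0.66), and 33 fell and 4 rose with I-BET151 (-0.43). E2F1 was at 10.2 and 11.9 FPKM with JQ1, 10.51 and 11.7 with Molib, 45.9 and 39.6 with I-BET151 and 39.2 and 40.97 with DMSO. It fell with a difference of -1.77 log2 units (SE 0.12, adjusted p = 0.000132) with JQ1. With Molib the difference was -1.77 log2 units (SE 0.12, adjusted p = 0.000111), whereas with I-BET151 it differed from DMSO by 0.09 log2 units (95% interval -0.20 to 0.37, adjusted p = 0.636), and it was higher with I-BET151 than with JQ1 by 1.86 log2 units (SE 0.12, adjusted p = 5.20e-05) (its I-BET151 values were picked after they were seen). TOP2A with I-BET151 fell with a difference of -1.84 log2 units (SE 0.16, adjusted p = 0.000480), so that not every gene of the cycle was nearer to DMSO with I-BET151. Of 40 mitosis genes, 37 fell in shM3 relative to B5 (median -1.10), 40 rose in shM3_WT and 30 in shM3_CD relative to shM3, and 25 were higher in shM3_WT than in B5. They fell in number 32 with JQ1, 35 with Molib and 36 with I-BET151 (medians -1.02, -1.13 and -1.09). Of the 7 cyclin-dependent kinase inhibitors listed, 5 were tested in the knockdown table. CDKN1B and CDKN1C were higher in shM3 than in B5, by 0.62 and 0.72 log2 units, and CDKN2C and CDKN2D lower, with differences of -0.94 and -0.67 log2 units, while CDKN1A differed by 0.47 log2 units (95% interval -0.23 to 1.17, adjusted p = 0.253).

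The promoter strings can be set beside these changes. Among the 22 genes whose promoter held an E2F string, 19 fell in shM3 relative to B5 with a median of -1.05, and among the 22 whose promoter held none, 21 fell with a median of -0.83. With JQ1 the medians were -0.95 and -0.96, with Molib -1.05 and -0.89, and with I-BET151 -0.67 and -0.62, always with the string first. Between shM3_WT and shM3_CD the median difference was 0.70 with the string and 0.43 without. No test was made of these differences.

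The CTRL table gave few calls. In JQ1 relative to CTRL, limma called 0 of 51 and 0.0% of the 13261 genes tested, with 15 of the 51 and 2048 of all genes under an unadjusted p of 0.05, and the median log2 difference of the 51 was -1.01, against -0.00021 over all genes. Without CTRL replicate 2 the count was 3, namely ORC6, CDC45 and POLD2. TYMS was at 24.1 and 20.4 FPKM in MW_JQ1, 77.4 and 61.1 in JQ1 and 139 and 146 in CTRL, and JQ1 differed from CTRL by -1.04 log2 units (95% interval -1.64 to -0.44, adjusted p = 0.143). PCNA was at 87.3 and 75.7 FPKM in MW_JQ1, 65.4 and 79.98 in JQ1 and 189 and 127 in CTRL. MCM3 was at 43.6 and 42.5 FPKM in MW_JQ1, 39.96 and 26.8 in JQ1 and 139.7 and 74.8 in CTRL. RRM2 was at 11.2 and 10.46 FPKM in MW_JQ1, 13.6 and 6.66 in JQ1 and 24.7 and 48.6 in CTRL. The JQ1 libraries lay below the CTRL libraries in each of these 4 genes, but the 2 CTRL libraries differed widely in MCM3 and RRM2. CDC45 was at 5.38 and 5.55 FPKM in MW_JQ1, 0 and 0 in JQ1 and 5.61 and 5.54 in CTRL. ORC6 was at 8.82 and 8.29 FPKM in MW_JQ1, 0 and 0 in JQ1 and 19.04 and 3.61 in CTRL. PRIM1 was at 8.36 and 5.64 FPKM in MW_JQ1, 0.0225 and 0 in JQ1 and 0 and 0 in CTRL. Genes that dividing cells need were listed at 0. Whether a 0 here stands for absent RNA, shallow sampling or a failed estimate was not tested. Counting both libraries, the values listed at 0 among these genes were 0 in number in MW_JQ1, 15 in JQ1 and 7 in CTRL.

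In MW_JQ1 relative to JQ1, 3 of 51 were higher and 1 lower, with 13.5% and 1.62% of all genes. All genes together had a median of 0.75 there and the 51 genes 0.97, and scaling to equal medians brought these to 0.15 and 0.37, so single changes are read against that shift. Among the 3, PRIM1, the catalytic primase subunit, entered the fit through the MW_JQ1 libraries alone, so its call follows from the filter on low values and from values listed at 0, and nothing is read from it. CDC45 was higher against JQ1 libraries that were both listed at 0, a call lost with a replicate block (adjusted p = 0.0651). POLD1 was at 22.5 and 22.8 FPKM in MW_JQ1, 4.48 and 2.99 in JQ1 and 12.6 and 25.5 in CTRL, and its call was lost with equal medians (adjusted p = 0.0792), with TMM factors (0.0604), with a replicate block (0.0994) and whichever library was left out. TYMS was lower in MW_JQ1 than in JQ1, with a difference of -1.59 log2 units (SE 0.23, adjusted p = 0.0111). The count of 4 was 11 without JQ1 replicate 1, and 0 without MW_JQ1 replicate 1 or MW_JQ1 replicate 2. In MW_JQ1 relative to CTRL, 1 of 51 was higher, PRIM1, with the same limit, and 1 lower, with 13.3% and 1.88% of all genes. The lower one was TYMS, with a difference of -2.63 log2 units (SE 0.23, adjusted p = 0.00165). The medians were -0.02 for the 51 and 0.61 for all genes, and the count was 5 without CTRL replicate 2 and 0 without either MW_JQ1 library, where PRIM1 no longer passed the filter. Without MW_JQ1 replicate 1 or replicate 2 the adjusted p of TYMS was 0.597 and 0.776 against JQ1, and 0.144 and 0.201 against CTRL. METTL3 RNA was at 212 and 234 FPKM in these MW_JQ1 libraries, against 11.8 and 0 in JQ1.

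**Figure D5:**
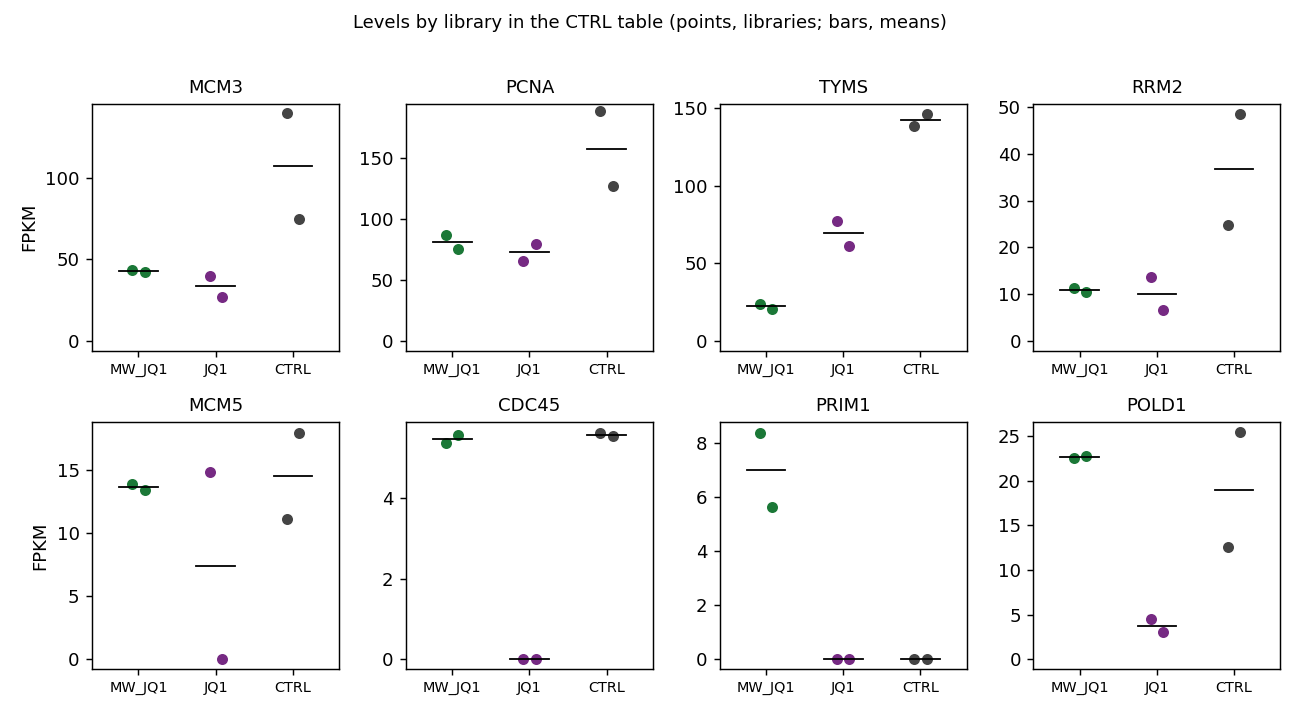
FPKM (vertical axes) of 8 of the genes in each library of the CTRL table, with points for libraries and bars for group means. TYMS separates the 3 groups, MCM3, PCNA and RRM2 are highest in CTRL, and CDC45 and PRIM1 show the libraries listed at or near 0.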

How the data were processed

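The authors deposited 3 tables of FPKM. FPKM is in the name of 1 table, and elsewhere the unit was taken from the format and sums of the values. The submitters' processing notes list CASAVA (version 1.4), HISAT2 (2.1.0), Cufflinks (2.2.1) and the hg38 build without a role or order. Per the labels' protocols there were 2 library preparations, not tied to samples. Tool options, annotation and strandedness were not given in the sources at hand. The CTRL table also holds the authors' own test, a mean signal, a log2 fold change with its error, p-values and adjusted p-values, per the file headers, which was not used here. The commonest lowest step of FPKM held 2.18 to 3.54% of genes in the knockdown and DMSO tables and 1.39 to 2.11% in the CTRL table, too few to give a depth. Depth is therefore unknown, and intervals that need counts were left out. Of per-sample columns 0 were left out.

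The planned test depended on the unit, counts or FPKM, and the one for FPKM was used. Values were taken as log2(FPKM + 1). A gene entered the test of a table if 2 or more libraries had at least 1 FPKM (14638, 14936 and 13261 genes), which all 51 members did, PRIM1 in the CTRL table through the MW_JQ1 libraries alone. Each table was fitted once, over all its groups, by limma 3.58.1 under R 4.3.3 with lmFit, contrasts and a trended eBayes. Benjamini-Hochberg adjustment ran over all genes with a threshold of 0.05, in 15 comparisons. The scripts were tested on simulated data. Summaries and figures used Python 3.11.15, pandas 2.3.3, numpy 2.4.6 and matplotlib 3.10.9. The JQ1 columns of the DMSO table were assigned to JQ1 samples by elimination. The members, gene lists and tests were chosen with earlier results of these data known.

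Named in full are, in each step, the 3 genes with the highest mean FPKM over the knockdown table, in each comparison the 3 largest rises and falls past the threshold without overlap, and genes called against the majority. Of other lists up to 2 with the smallest adjusted p are named. Other genes named were chosen after their values were seen. Promoters are those of RefSeq, GRCh38.p14, matched by symbol. Alternatives were a replicate block, the 2 groups alone, pseudocounts of 0.1 and 5, no filter, a filter at 5 FPKM, TMM factors computed without weights, equal medians, a 2-fold limit and leaving out each library. The block with crossed numbers was added after seeing the data.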

Additional observations from a re-analysis of the deposited data

Results flagged for a closer look

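POLA1, the catalytic subunit of polymerase alpha, lay on opposite sides of its controls with JQ1 in 2 tables, but passed the test in the DMSO table alone. In the CTRL table it was at 9.52 and 4.69 FPKM in JQ1 and 3.94 and 2.08 in CTRL (7.10 ± 3.42 against 3.01 ± 1.32, SD, n = 2), a log2 difference of 0.99 (95% interval -0.68 to 2.66, limma with Benjamini-Hochberg adjusted p = 0.539), which did not pass. In the DMSO table it was at 5.85 and 5.29 FPKM with JQ1 and 9.14 and 9.43 with DMSO, a log2 difference of -0.65 (95% interval -0.90 to -0.39, adjusted p = 0.00414 from the same test). It is given here because both libraries of each JQ1 group lay on 1 side of their controls, above in the CTRL table and below in the DMSO table. The difference between the tables was not tested.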

How the results depend on the processing

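No result changed direction under any alternative run. The counts below are of the replication genes described here. The share of all genes called under the 2-fold limit or the other alternatives is not given. Whether these counts exceed what all genes show therefore cannot be told, and they are not read that way. With a further 2-fold limit the number of genes called was 22 for shM3 against B5, 25 for shM3_WT against shM3, 0 for shM3_CD against shM3, 7 for shM3_WT against shM3_CD, 1 for shM3_WT against B5, 5 for shM3_CD against B5, 22, 24 and 9 for JQ1, Molib and I-BET151 against DMSO, 7 for I-BET151 against JQ1 and 8 for I-BET151 against Molib. Leaving out 1 library gave 39 to 41 for shM3 against B5, 44 to 47 for shM3_WT against shM3, 8 to 11 for shM3_CD against shM3, 19 to 24 for shM3_WT against shM3_CD, 8 to 13 for shM3_WT against B5, 21 to 26 for shM3_CD against B5, 35 to 39, 38 to 39 and 23 to 36 for JQ1, Molib and I-BET151 against DMSO, 24 to 31 for I-BET151 against JQ1, 26 to 36 for I-BET151 against Molib, 0 to 3 for JQ1 against CTRL, 0 to 11 for MW_JQ1 against JQ1 and 0 to 5 for MW_JQ1 against CTRL. A group left with 1 library was taken to vary like the others. With only the 2 groups fitted the counts were 8 for MW_JQ1 against JQ1 and 5 for MW_JQ1 against CTRL; the cause was not tested.

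Replicate numbers did not pair the libraries (correlation of same-numbered deviations from -0.12 to 0.04). With a replicate block the counts were 45, 48, 19, 38, 13 and 30 in the 6 knockdown comparisons as listed above, 41 for Molib and 31 for I-BET151 against DMSO, 28 for I-BET151 against Molib, and 0, 2 and 2 in the CTRL table. With the numbers of I-BET151 and DMSO crossed, I-BET151 against DMSO gave 34. JQ1 of the DMSO table carries no number, so no paired fit was made for it. FPKM without depth, and 2 libraries a group, limit all of these results.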
